A study of Amolops torrentis with 15 samples.

Results

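The transcripts of 2 pituitary hormones, pomc and cga, and of 2 receptors that act on the cells making them, TRHR and SSTR2, were followed through the whole brains of female Amolops torrentis, a torrent frog. Members were all features of the transcript table whose Swiss-Prot match carries one of these 4 gene symbols, in upper or lower case. There were 6 such features among 44351: 1 for pomc, 1 for cga, 3 for TRHR and 1 for SSTR2. All 6 passed the filter on low values, which asked for an average FPKM of 1 or more across the 15 libraries. FPKM is a fragment count divided by the length of the feature and the size of the library.

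The labels name 5 groups by stimulus, with 3 libraries each: audiovisual, acoustic, visual, dark contrast and blank contrast. The study's question was how gene expression in the female brain follows acoustic and visual sexual cues, alone and together. The labels leave unsaid what the 2 contrast groups were shown or played, whether a library comes from 1 frog or several, or whether the pituitary stayed attached to the brain at dissection. No age or genetic background is given, and all groups share species, sex, tissue and protocol. The p-values thus reflect how much these libraries vary, part of which may be technical.

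Pro-opiomelanocortin, the product of pomc, is a precursor that is cut into adrenocorticotropic hormone, alpha-melanocyte-stimulating hormone and beta-endorphin. The cells that make most of it are the corticotropes of the anterior pituitary and the melanotropes of the intermediate lobe, whose hormone darkens frog skin, and neurons of the hypothalamus make it as well. The product of cga is the alpha subunit that thyroid-stimulating hormone, luteinizing hormone and follicle-stimulating hormone share, and its main sources are the thyrotropes and gonadotropes of the pituitary. TRHR is the receptor for thyrotropin-releasing hormone, which in frogs releases alpha-melanocyte-stimulating hormone from melanotropes, and SSTR2 is a receptor for somatostatin, an inhibitor of hormone release. Both receptors are also found on neurons.

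The features had these identities in the deposited annotation. The pomc feature (Cluster-46846.156256, 2037 bases) matched pro-opiomelanocortin of the marsh frog Pelophylax ridibundus, but its deposited protein-domain match was ribosomal protein S21e, so reads of another transcript in the same feature cannot be separated from it. The cga feature (Cluster-46846.212431, 793 bases) matched the alpha chain of the bullfrog Lithobates catesbeiana and carried a glycoprotein hormone domain. The 3 TRHR features differed in their closest frog relative: TRH receptor 1 of Xenopus laevis (Cluster-46846.90875, 3141 bases), TRH receptor 2 of the same species (Cluster-46846.29463, 1800 bases) and a TRH receptor-like protein of Xenopus tropicalis (Cluster-46846.183232, 4449 bases). The SSTR2 feature (Cluster-46846.189215, 2369 bases) matched somatostatin receptor 2 of Xenopus laevis. Features have no genome position in the table.

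The members were chosen by the measured difference between audiovisual and blank contrast libraries. Every value that involves either of these groups is therefore given as a description, with no test. Not every member differs between them in the fit used here. The log2 fold change for audiovisual against blank contrast was 6.36 for pomc and 7.24 for cga. It was 0.06 for SSTR2 and -0.04 to 0.42 for the TRHR features. Tests on the members were made between the acoustic, visual and dark contrast groups, 9 libraries in all. Library totals ran from 12071194 to 16829356 counts, and each library correlated with the others at a mean r of 0.934 to 0.941, so none stood apart as a whole. Levels are CPM (counts scaled to a common library size with TMM factors) within a gene, and FPKM where genes are set side by side.

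The 2 hormone transcripts varied from library to library far more than the 4 receptor features. The pomc level spanned 659-fold between the highest library (audiovisual 3, 7691 CPM) and the lowest (visual 3, 11.7 CPM). The cga level spanned 2711-fold, with audiovisual 3 highest (1883 CPM) and visual 2 lowest (0.695 CPM). Over the 9 acoustic, visual and dark contrast libraries alone, which did not serve the choice, pomc spanned 432-fold, cga 146-fold and the receptor features 1.49-fold to 3.31-fold. Over all 15 the receptor features spanned 2.03-fold to 3.63-fold, and the median over all 42619 features tested was 3.23-fold. In bulk tissue, fewer cells of a type and less RNA per cell cannot be told apart.

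In audiovisual libraries 1, 2 and 3 pomc was 1815, 54.1 and 7691 CPM. In acoustic libraries it was 265, 1936 and 66.7 CPM. In visual libraries it was 102, 47.8 and 11.7 CPM. The visual libraries were all low, while the other stimulus groups each held libraries of both kinds. Dark contrast libraries had 397, 5042 and 453 CPM, and blank contrast libraries had 11.7, 65.6 and 38.9 CPM. All 3 dark contrast libraries thus lay above all 3 blank contrast libraries, as in 5.28% of all features, and since the blank contrast group served the choice nothing is read from this.

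Mean pomc was 3187 ± 3999 CPM in audiovisual, 756 ± 1027 CPM in acoustic, 53.7 ± 45.2 CPM in visual, 1964 ± 2666 CPM in dark contrast and 38.7 ± 26.9 CPM in blank contrast libraries (SD, n = 3 each). In the audiovisual, acoustic and dark contrast groups the SD exceeded the mean. By mean level the groups ran audiovisual, dark contrast, acoustic, visual and blank contrast, and every pair of neighbours in this order overlapped. A level over 1000 CPM was reached in 4 libraries from 3 groups, audiovisual 1 and 3, acoustic 2 and dark contrast 2. The lowest of these had 1815 CPM and the highest of the other libraries 453 CPM.

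In audiovisual libraries 1, 2 and 3 cga was 652, 1.28 and 1883 CPM. In acoustic libraries it was 7.28, 3.29 and 101 CPM. The visual libraries had 11, 0.695 and 7.83 CPM. Both high audiovisual libraries were also among those highest in pomc, whereas acoustic 3, the third highest in cga, had only 66.7 CPM of pomc. Dark contrast libraries had 5.97, 14.3 and 0.97 CPM of cga, and blank contrast libraries had 10.7, 4.88 and 1.27 CPM. Each group held a library at or below 3.29 CPM, and all pairs of groups overlapped.

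Mean cga was 846 ± 956 CPM in audiovisual, 37.4 ± 55.6 CPM in acoustic, 6.51 ± 5.29 CPM in visual, 7.08 ± 6.73 CPM in dark contrast and 5.61 ± 4.75 CPM in blank contrast libraries (SD, n = 3 each). By mean level the groups ran audiovisual, acoustic, dark contrast, visual and blank contrast. A level over 100 CPM was found in 3 libraries, and the highest of the other libraries had 14.3 CPM. The low levels rest on few reads. Visual 2 had 9 counts of cga, a share of 6.9e-05% of its total (95% exact binomial interval 3.16e-05 to 0.000131%), and audiovisual 3 had 31583 counts. Such intervals cover counting error only, and the span of cga is far outside them.

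**Figure D1:**
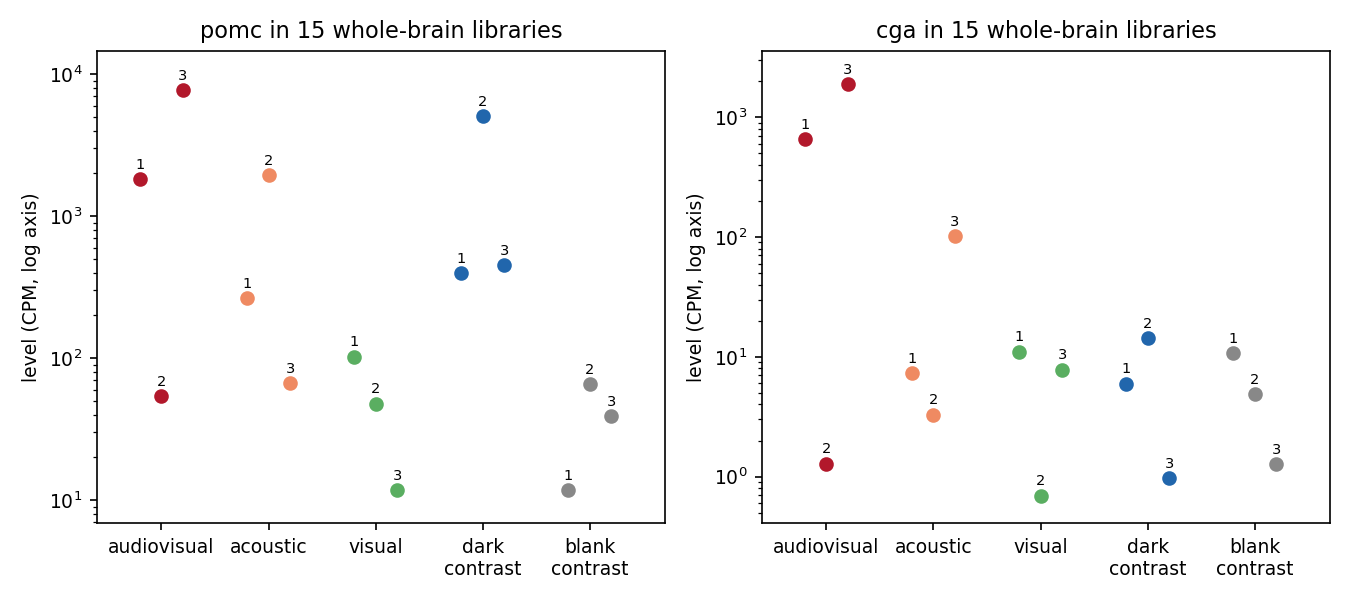
Level of pomc (left) and cga (right) in each of the 15 libraries, in CPM on a log axis; points are libraries, numbered by replicate, in the 5 groups. The pomc points of visual (11.7 to 102 CPM) lie below those of dark contrast (397 to 5042 CPM), and cga stands over 100 CPM in audiovisual 1, audiovisual 3 and acoustic 3.

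At their highest the hormone transcripts were among the most abundant of a library. By FPKM, pomc ranked 17th and cga 22nd of 44351 features in audiovisual 3, and pomc alone took 0.766% of that library's counts (95% exact binomial interval 0.762 to 0.771%). In dark contrast 2 pomc ranked 28th, with 0.518% of the counts (0.515 to 0.522%). In visual 3 and blank contrast 1 the same transcript ranked 18906th and 18878th. The cga transcript ranked 39423rd in visual 2 and 35988th in dark contrast 3.

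Much of the spread lay between libraries of the same group. The SD of log2 CPM within groups was 3.09 for cga, the largest of all 42619 features, and 2.36 for pomc, the 15th largest, against a median of 0.43 over all features. Within the 9 acoustic, visual and dark contrast libraries alone the SDs were 2.18 (cga, the 37th largest) and 2.06 (pomc, the 59th largest), against a median of 0.42. Over all 15 libraries SSTR2 (0.42) and the TRHR receptor 1 feature (0.44) had within-group SDs close to the median, and the TRHR receptor 2 (0.29) and receptor-like (0.30) features lay below it.

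The 2 hormone transcripts were not high in the same libraries throughout. Compared per length, pomc exceeded cga in 11 of 15 libraries. The ratio of pomc to cga in FPKM ran from 0.197 in acoustic 3 (32.58 against 165.3 FPKM) to 180 in acoustic 2 (973.92 against 5.41 FPKM). In audiovisual 1 and 3 the 2 transcripts were near equal, at ratios of 0.834 and 1.22, while in dark contrast 2 and 3 pomc was 107 and 141 times cga. Both were above their thresholds of 1000 and 100 CPM in 2 libraries.

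Across the 9 acoustic, visual and dark contrast libraries, log2 CPM of pomc and cga showed no relation that the test could detect (Pearson's r = -0.06, exact two-sided permutation p = 0.877; Spearman's rho = -0.05, exact p = 0.912). Without dark contrast 2 and visual 3, the libraries farthest from the median of pomc, r was -0.26 (exact permutation p = 0.583) and rho -0.21 (exact permutation p = 0.662; n = 7). With values centred on their group mean, r was -0.23 (exact permutation p = 0.644). This was the only relation between libraries that was tested. Over all 15 libraries r was 0.50 and rho 0.38, which includes the audiovisual libraries by which the genes were chosen.

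**Figure D2:**
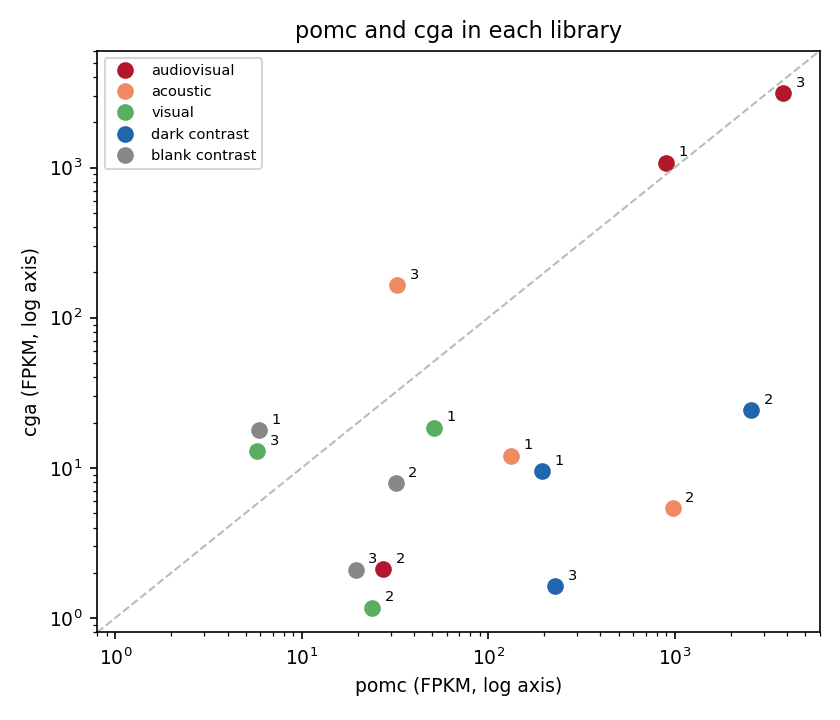
Level of cga against pomc in each of the 15 libraries, both in FPKM on log axes; points are libraries coloured by group and numbered by replicate, and the dashed line marks equal levels. Audiovisual 1 and 3 lie near the line at high levels, whereas acoustic 2 and dark contrast 2 and 3 have over 100 times more pomc than cga.

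All visual libraries had less pomc than all dark contrast libraries, 11.7 to 102 CPM against 397 to 5042 CPM. The log2 fold change was -5.19 ± 1.69 (SE) for visual against dark contrast, with an unadjusted p of 0.00849 and an adjusted p of 0.914 over all features (edgeR quasi-likelihood test), so the difference did not pass. Over all features, 5.30% had an unadjusted p under 0.05 in this comparison, 0% passed after adjustment, and in 5.30% all visual libraries lay below all dark contrast libraries. Without dark contrast 2 the log2 fold change of pomc was -2.98 ± 1.49 (edgeR unadjusted p = 0.0665, adjusted p = 0.836), and without each other library in turn it was -6.05 to -4.72. The difference for cga was -0.12 ± 1.63 (adjusted p = 0.996).

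Acoustic libraries had more pomc than visual libraries on average, 756 against 53.7 CPM, but acoustic 3 (66.7 CPM) lay below visual 1 (102 CPM). The log2 fold change was 3.81 ± 1.59 for acoustic against visual (edgeR unadjusted p = 0.0309, adjusted p = 0.991). Without acoustic 2 it was 1.63 ± 1.45 (edgeR unadjusted p = 0.283, adjusted p = 1). For cga it was 2.51 ± 1.66 (adjusted p = 1), and without acoustic 3 the sign turned, at -0.31 ± 1.67. In this comparison 5.01% of all features had an unadjusted p under 0.05 and 0% passed after adjustment.

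Acoustic and dark contrast libraries overlapped widely in both hormones. The log2 fold change for acoustic against dark contrast was -1.38 ± 1.44 for pomc (adjusted p = 0.986) and 2.39 ± 1.65 for cga (adjusted p = 0.974). Each sign rested on 1 library: without dark contrast 2 the value for pomc was 0.83 ± 1.5, and without acoustic 3 that for cga was -0.43 ± 1.67. In this comparison 5.11% of all features had an unadjusted p under 0.05 and 0% passed after adjustment. An SE of 1.4 to 1.7 on the log2 scale is wide enough that these tests do not show the hormone levels to be alike in any pair of groups.

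The remaining pairs of groups include audiovisual or blank contrast libraries and are described only. For audiovisual against acoustic the log2 fold change was 2.08 ± 1.47 for pomc and 4.50 ± 1.76 for cga. For audiovisual against visual it was 5.89 ± 1.75 for pomc and 7.01 ± 2.0 for cga. Against dark contrast, audiovisual libraries differed little in pomc relative to the SE (0.70 ± 1.42) and by 6.89 ± 1.99 in cga. Audiovisual 2 was low in both hormones, at 54.1 and 1.28 CPM, and lay inside the range of the visual group for each. For dark contrast against blank contrast the values were 5.66 ± 1.73 for pomc and 0.35 ± 1.64 for cga.

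**Figure D3:**
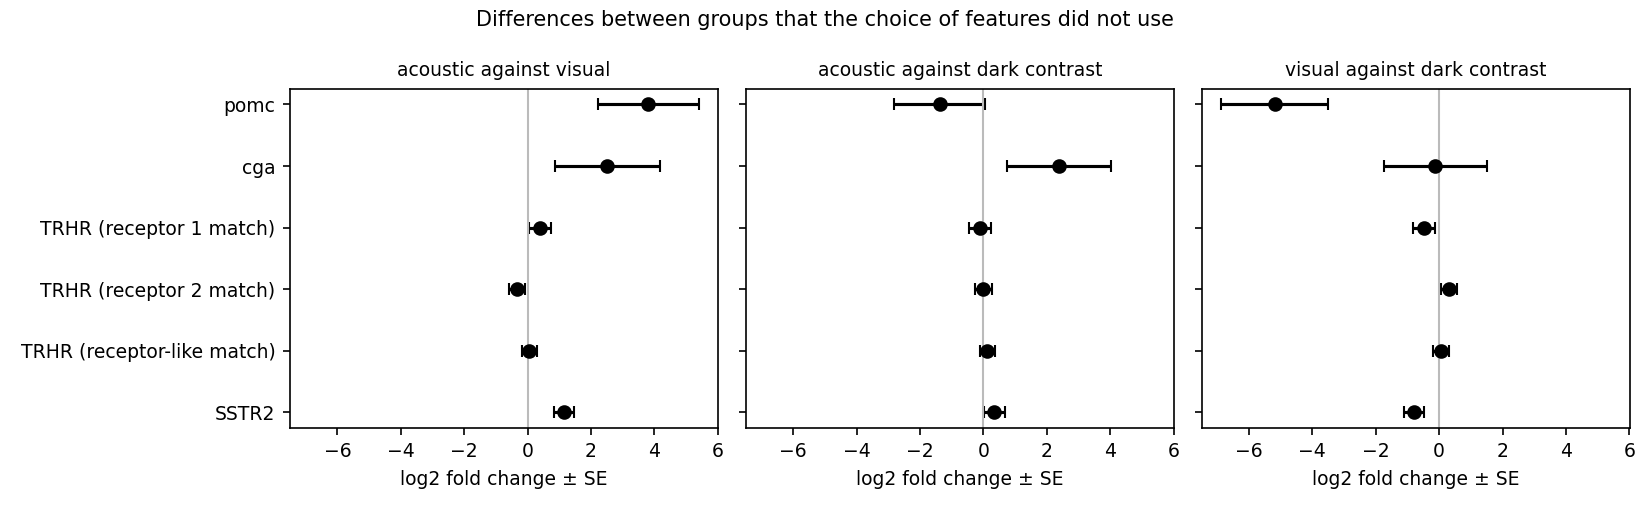
Log2 fold change (point) and SE (bar) of the 6 features in the 3 comparisons that the choice of features did not use; a positive value means higher in the first-named group. The bars of pomc and cga are the widest, and pomc (-5.19) and SSTR2 (-0.80) both lie below 0 for visual against dark contrast.

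The receptor SSTR2 was lower in visual libraries than in acoustic and dark contrast libraries. Acoustic libraries 1, 2 and 3 had 22.1, 20.1 and 30.8 CPM. Visual libraries had 9.31, 12.4 and 11.1 CPM, and dark contrast libraries had 16.8, 19.4 and 20.9 CPM. All 3 visual libraries lay below all 3 of either group. Audiovisual libraries had 15.9, 25.2 and 23 CPM and blank contrast libraries 15.2, 33.8 and 12.5 CPM. The highest visual library (12.4 CPM) was also just below the lowest of the 12 other libraries (12.5 CPM). How many of all features show such a pattern was not computed. The audiovisual and blank contrast groups served the choice, so nothing is read from it.

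The log2 fold change of SSTR2 was 1.15 ± 0.32 for acoustic against visual (edgeR unadjusted p = 0.00325, adjusted p = 0.984). For visual against dark contrast it was -0.80 ± 0.32 (edgeR unadjusted p = 0.0271, adjusted p = 0.934). Neither passed after adjustment, and acoustic against dark contrast gave 0.35 ± 0.32 (adjusted p = 0.984). Non-overlap of the kind seen for SSTR2 was found in 5.41% of all features for acoustic above visual and 5.30% for visual below dark contrast. Leaving out each library in turn gave 0.94 to 1.27 for acoustic against visual and -0.90 to -0.69 for visual against dark contrast.

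Among the other somatostatin receptors, SSTR3 (Cluster-46846.37632) had 4.38, 3.35 and 2.64 CPM in acoustic libraries. It had 6.01, 8.03 and 6.39 CPM in visual libraries, against 1.26, 3.02 and 3.8 CPM in dark contrast libraries. The visual libraries were thus above all others of these 3 groups, a non-overlap found in 4.99% of all features for acoustic below visual and 5.30% for visual above dark contrast. Audiovisual libraries had 3.83, 3.91 and 7.04 CPM and blank contrast libraries 7.35, 3.75 and 7.37 CPM, so both groups overlapped the visual libraries. The log2 fold change was 1.33 ± 0.40 for visual against dark contrast (edgeR unadjusted p = 0.00535, adjusted p = 0.895) and -0.98 ± 0.40 for acoustic against visual (unadjusted p = 0.0273, adjusted p = 0.987). SSTR4 was steady at 14.9 to 21.9 CPM over the 15 libraries, and none of the 3 SSTR1 features had an unadjusted p under 0.05. Of the 22 features of hypothalamic releasing factors and their receptors, a list that holds SSTR2 and TRHR, only SSTR2 and SSTR3 had an unadjusted p under 0.05 in any tested comparison. The share of all features at that level was 5.01% (acoustic against visual), 5.11% (acoustic against dark contrast) and 5.30% (visual against dark contrast). The list's median log2 fold change was 0.04 for acoustic against visual, 0.07 for acoustic against dark contrast and 0.08 for visual against dark contrast.

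The TRHR features were low and even. The receptor-like feature was 21.8, 13.2 and 23.3 CPM in audiovisual libraries. It was 19.2, 16.6 and 16.9 CPM in acoustic, 19.5, 13.1 and 17.9 CPM in visual and 16.3, 13.9 and 18.2 CPM in dark contrast libraries. Blank contrast libraries had 18.6, 11.5 and 13.7 CPM, and all groups overlapped. Within every group replicate 2 had the lowest level of this feature, and the cause was not tested. The receptor 1 feature ran from 3.64 CPM (audiovisual 3) to 8.57 CPM (acoustic 2), and the receptor 2 feature from 4.1 CPM (blank contrast 3) to 8.48 CPM (visual 1), again with overlap between every pair of groups. Mean FPKM over the libraries was 3.58 for the receptor-like, 3.36 for the receptor 2 and 1.80 for the receptor 1 feature.

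No TRHR feature had an unadjusted p under 0.05 in any of the 3 tested comparisons. The log2 fold change furthest from 0 was that of the receptor 1 feature for visual against dark contrast (-0.48 ± 0.35, adjusted p = 0.957). The receptor 2 feature gave 0.32 ± 0.26 in the same comparison (adjusted p = 0.962) and the receptor-like feature 0.06 ± 0.24 (adjusted p = 0.993). Over all 15 libraries, log2 CPM of the receptor-like feature followed cga with r = 0.68, and over the 9 libraries that did not serve the choice with r = 0.23. These correlations share libraries and depth and are descriptions.

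**Figure D4:**
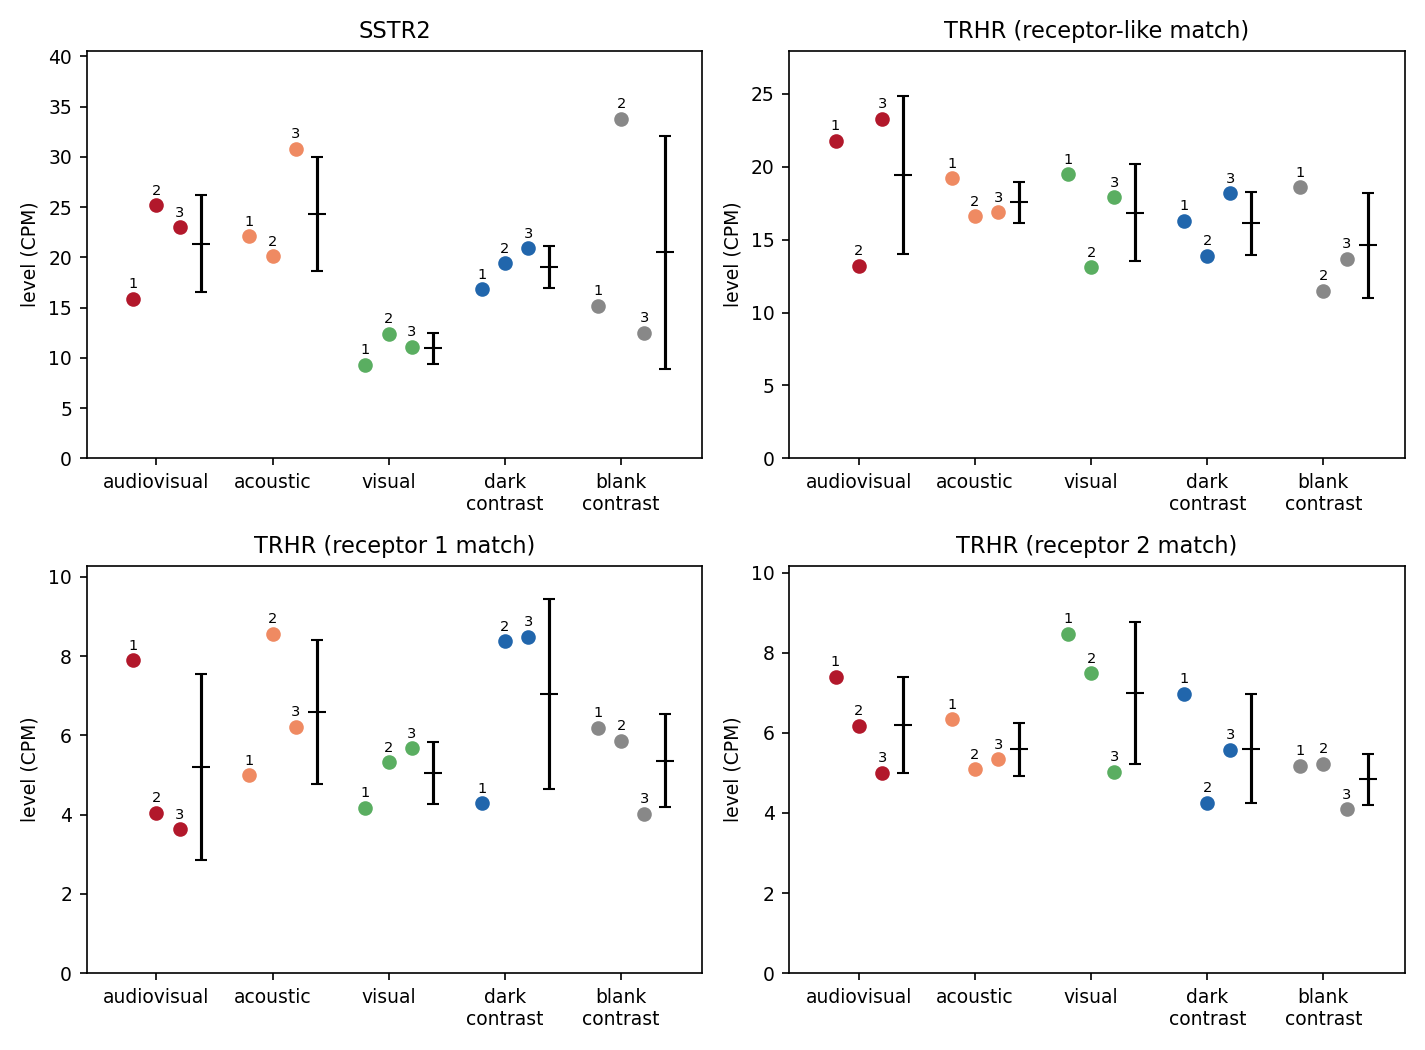
Level of SSTR2 and the 3 TRHR features in each of the 15 libraries in CPM; points are libraries numbered by replicate, and the black bar beside each group is its mean ± SD (n = 3). The 3 visual libraries of SSTR2 (9.31 to 12.4 CPM) lie below those of acoustic and dark contrast, and the groups of every TRHR feature overlap.

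The peptides that control these cells were far steadier than the hormones. Pro-TRH, the precursor of thyrotropin-releasing hormone, was 59.9 to 98.5 CPM over the 15 libraries. The precursors of corticotropin-releasing hormone (11.1 to 17.9 CPM), which acts on corticotropes, and of GnRH2 (11.3 to 18.4 CPM) were as even. GnRH1, the releasing hormone for gonadotropes, was the most variable precursor at 6.02 to 44.8 CPM. The 14 features of such precursors, found by their Swiss-Prot description, had a median span of 1.63-fold, and 8 of them spanned less than 2-fold. In the tested comparisons 1 of the 14, vasotocin, had an unadjusted p under 0.05. Its level was 227, 245 and 306 CPM in acoustic libraries against 333, 332 and 362 CPM in visual libraries. The log2 fold change was -0.40 ± 0.14 (edgeR adjusted p = 0.985). Among all features, 5.01% (acoustic against visual), 5.11% (acoustic against dark contrast) and 5.30% (visual against dark contrast) had an unadjusted p under 0.05. The median log2 fold change over the 14 was 0.02 for acoustic against visual, 0.06 for acoustic against dark contrast and 0.11 for visual against dark contrast.

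Several genes of prohormone cutting and storage were even, and others were not. The convertases PCSK1 (135 to 190.4 CPM) and PCSK2 (most abundant feature 215 to 377 CPM) cut pro-opiomelanocortin, cpe (1441 to 1968 CPM) trims the products and pam (639.9 to 849 CPM) amidates them. Of the 15 symbols listed, 12 were present on 29 features, and none of the 29 had an unadjusted p under 0.05 in any tested comparison. The share of all features at that level was 5.01% (acoustic against visual), 5.11% (acoustic against dark contrast) and 5.30% (visual against dark contrast). Of the 29 features, 15 spanned less than 2-fold over the 15 libraries, and the median span was 1.75-fold. Their median log2 fold change was 0.02 for acoustic against visual, 0.03 for acoustic against dark contrast and 0.02 for visual against dark contrast, beside 0.01, 0.01 and 0.00 over all features. Single features of CHGA and PTPRN spanned up to 112-fold, and a second PCSK2 feature (Cluster-46846.157739) ran from 24.8 to 387 CPM, where a symbol stands on several features among which reads can be divided. The summed level of the 29 features was 7604 to 8016 CPM in audiovisual libraries and 6561 to 7557 CPM in the other groups. In audiovisual libraries 1, 2 and 3 a single CHGA feature (Cluster-46846.160056) had 815, 122 and 878 CPM, against a median of 142 CPM over the 15 libraries. The audiovisual group served the choice of members, so nothing is read from the higher sums.

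**Figure D5:**
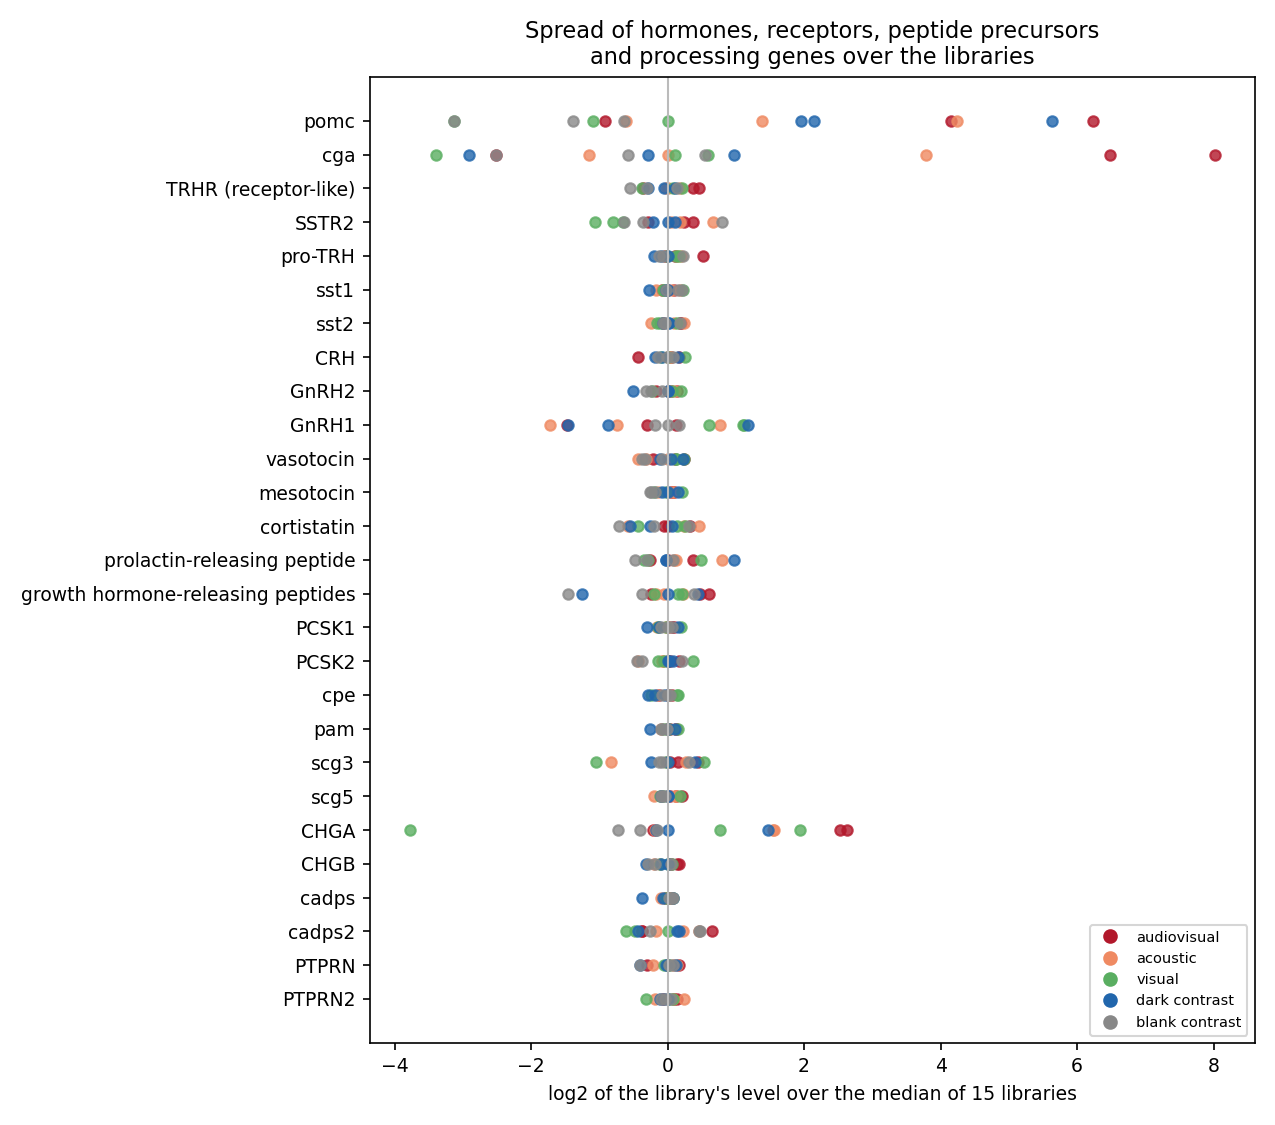
Level of each gene in each of the 15 libraries relative to its median, as a log2 ratio, for the most abundant feature of each symbol; points are libraries coloured by group, and 0 is the median. The points of pomc and cga spread over several log2 units on each side, while those of the other genes plotted, except GnRH1, growth hormone-releasing peptides and CHGA, stay within about 1 log2 unit of it.

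Receptors for the pomc products were present at low levels. Of 15 symbols of melanocortin and opioid receptors and agouti signals, 8 were tested on 10 features. The melanocortin receptor mc5r stood on 2 features that ran opposite ways. The less abundant (Cluster-46846.100971) was 10.3, 10.9 and 3.25 CPM in acoustic libraries and 2.28, 4.09 and 2.32 CPM in visual libraries. The visual values lay below the 8.32, 6.59 and 6.47 CPM of dark contrast libraries, a non-overlap found in 5.30% of all features. Its log2 fold change was -1.30 ± 0.52 for visual against dark contrast (edgeR unadjusted p = 0.0263, adjusted p = 0.934) and 1.5 ± 0.52 for acoustic against visual (unadjusted p = 0.0125, adjusted p = 0.984).

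The more abundant mc5r feature (Cluster-46846.100969) gave 0.31 ± 0.28 for visual against dark contrast. For acoustic against visual it gave -0.60 ± 0.28, with an edgeR unadjusted p that rounds to 0.05 but lies under it (adjusted p = 0.996). The level of the gene as a whole is thus uncertain. Besides the mc5r features, 1 feature of atrnl1, an attractin-like gene, had an unadjusted p under 0.05 (-0.86 ± 0.40 for visual against dark contrast, edgeR adjusted p = 0.934). In all, 2 of the 10 features were lower at that level for visual against dark contrast, 1 higher and 1 lower for acoustic against visual, and 0 for acoustic against dark contrast, beside 5.30%, 5.01% and 5.11% of all features in those comparisons. The list's median log2 fold change was 0.04 for visual against dark contrast and -0.05 for acoustic against visual.

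No thyroid hormone gene passed after adjustment. Of 16 symbols 6 were present on 12 features. For acoustic against visual 2 were lower at an unadjusted p under 0.05, among them 1 feature of klf9, a thyroid hormone target (-1.23 ± 0.51, edgeR adjusted p = 0.991). Another klf9 feature (Cluster-46846.215685) gave -0.62 ± 0.69, and a further protein database matched it to a zinc finger protein 883-like entry. The lower feature (Cluster-46846.215687) had no match there, so the name klf9 is uncertain for both. The gene ncor1, a corepressor of the thyroid hormone receptor, stood on several features. Only Cluster-46846.163498 had an unadjusted p under 0.05. It was higher for acoustic against dark contrast (0.83 ± 0.29, edgeR adjusted p = 0.973) and visual against dark contrast (0.92 ± 0.29, adjusted p = 0.914). The other ncor1 features gave -0.41 to 0.15 and -0.38 to 0.61 in these comparisons. The most abundant (Cluster-46846.173978) gave -0.26 ± 0.20 and -0.23 ± 0.20, so the level of the gene as a whole is uncertain. Of all features, 5.01% (acoustic against visual), 5.11% (acoustic against dark contrast) and 5.30% (visual against dark contrast) had an unadjusted p under 0.05. The median over the 12 features was -0.42, -0.16 and 0.34 for acoustic against visual, acoustic against dark contrast and visual against dark contrast.

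Markers of pituitary lineages other than the members were thinly represented. Of 26 symbols for pituitary hormones and their lineages 7 were present; prl, gh, tshb, lhb, fshb, pou1f1 and tbx19 were not analysed here. Besides the members, gnrhr2, a GnRH receptor (5.14 to 12 CPM), and crhr1, the receptor for corticotropin-releasing hormone (24.3 to 34.5 CPM), were even over the 15 libraries. Neither had an unadjusted p under 0.05 in a tested comparison. How much pituitary tissue each library held was not tested.

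Marker lists of other tissues were compared in the same way. The 3 choroid plexus features summed to 66.4 to 83.4 CPM in visual libraries and 52.9 to 78.5 CPM in dark contrast libraries, and the 8 meninges and fibroblast features to 89.9 to 125 and 82.1 to 105 CPM. The choroid plexus features were those of kcnj13 and otx2, 2 of the 7 symbols listed. Much of the meninges and fibroblast sum came from pdgfra, at 45.4 to 63.7 CPM over the 15 libraries. Neither sum is thus a measure of how much of that tissue a library held. Over the 15 libraries the sums had r = -0.59 and -0.43 with pomc and r = -0.33 and -0.49 with cga. Their part in the hormone values was not tested. The 8 erythrocyte features summed to 514 to 1684 CPM, with r = -0.21 with pomc and 0.16 with cga. Of 2 skeletal muscle features, ckm had 10.1, 32.4 and 1.92 CPM in visual libraries. Dark contrast libraries had 4.62, 1.1 and 2.26 CPM of ckm, so the 2 groups overlapped. In the fit ckm was higher for visual against dark contrast at an unadjusted p under 0.05 (2.48 ± 0.88, edgeR adjusted p = 0.914). Of 6 hair cell features, otof (0.38 ± 0.12, edgeR adjusted p = 0.914) was higher and pou4f3 (-0.73 ± 0.33, adjusted p = 0.934) lower at that level in that comparison. For acoustic against dark contrast pou4f3 was lower at that level (-1.43 ± 0.34, edgeR adjusted p = 0.864). The pou4f3 feature was scarce, at 0.607 to 2.1 CPM over the 15 libraries. Its mean FPKM of 1.2 was close to the filter of 1, so its values rest on few reads. Of all features, 5.30% (visual against dark contrast) and 5.11% (acoustic against dark contrast) had an unadjusted p under 0.05, and 0% passed after adjustment.

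The features whose pattern was most like cga were found by Pearson's r of log2 CPM over the 15 libraries, as a description. Net1, a guanine nucleotide exchange factor, came first (r = 0.91), followed by MAN2B1, a lysosomal mannosidase (r = 0.85), and Cluster-46846.159700, which has no symbol (r = 0.84). MAN2B1 was 176 CPM in audiovisual 3 and 110 CPM in audiovisual 1, and 2.34 to 15.6 CPM in the other 13 libraries. The gene crhbp, whose protein binds corticotropin-releasing hormone, came next (r = 0.81), at 28.6 and 27.5 CPM in the same libraries and 12.4 to 16 CPM in the others. CALCR, the calcitonin receptor, followed (r = 0.80), and SRSF7, PLXND1, ZNF418, Cluster-126638.0 and Cluster-46846.208239 completed the first 10 (r = 0.77 to 0.79). In 7 of the 10 the highest levels were those of audiovisual 1 and 3. A ranking by likeness to cga, itself highest in those libraries, favours such features, so this is no separate result. Only 2 of the 10 stayed among the first 10 by Spearman's rho, and 4 without audiovisual 3.

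The features most like pomc were others. The first 10 had r = 0.78 to 0.85 and were led by Cluster-46846.90882 and Cluster-46846.118336, which have no symbol, then WWP2, a ubiquitin ligase (r = 0.81), ccdc115 (0.80) and APBB1 (0.79). QRFPR, the receptor for a hypothalamic RFamide peptide, was the tenth (r = 0.78), at 7.69 CPM in dark contrast 2 and 7.63 CPM in audiovisual 3. None spanned levels as pomc did: APBB1 ran from 43.5 to 99.9 CPM and WWP2 from 31.8 to 51.2 CPM. By Spearman's rho 3 of the 10 stayed among the first 10, and 3 did without audiovisual 3. For SSTR2 the closest features were Cluster-46846.218512 (r = 0.88), slc30a5 (0.83) and FBXL6 (0.83), and for the TRHR receptor-like feature Cluster-46846.117947 (0.85), Cluster-46846.171723 (0.85) and Cluster-46846.232844 (0.83). By Spearman's rho 1 of the 3 named for SSTR2 and 0 of the 3 for TRHR stayed among the first 3. Without the library highest in the gene, blank contrast 2 for SSTR2 and audiovisual 3 for TRHR, 0 of 3 stayed for either.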

How the data were processed

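Whole-brain RNA was preserved in RNAlater, extracted with Trizol and made into NEBNext Ultra libraries, per the labels' protocols. The deposited table holds the authors' estimated counts per clustered transcript, not normalized, and the authors' FPKM, per the file headers; 57.4% of the counts are whole to within 1e-06. How the transcripts were assembled and quantified is not given in the sources used here. The lowest deposited FPKM is 0.31, so features at 0 in any library are not analysed here.

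Counts were rounded, and features averaging an FPKM of 1 or more (42619) were scaled by TMM (library size: all features) and fitted with edgeR 4.0.16 (R 4.3.3, quasi-likelihood test), 5 groups of 3 sharing 1 spread (10 residual degrees of freedom). P-values were Benjamini-Hochberg adjusted over all features within a comparison, with a threshold of 0.05. An SE is approximate: the absolute log2 fold change over the square root of its F statistic. Correlations used log2 CPM with a prior count of 2. Exact permutation p-values enumerated all 362880 pairings of 9 libraries, all 5040 of 7 libraries, and all 216 within groups for centred values. The enumeration used numpy 2.4.6 and was checked against scipy 1.17.1. Scripts were checked on simulated data.

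Named were the members, the 10 features most like pomc and cga and the 3 most like TRHR and SSTR2, lineage genes present, and up to 5 members of a list with an unadjusted p under 0.05. The members and lists were chosen with earlier results of these data known. Other genes named for their role, among them SSTR1, SSTR4, the peptide precursors and the processing genes, were picked from the lists after their values were seen. A few genes that this rule names are not reported here. The replicate numbers showed no pairing by correlation. None of 30 same-numbered pairs had deviations from the group means correlated above 0.1. The mitochondrial percentage was nevertheless lowest in replicate 2 within every group, at 4.33 to 5.36%. Whether libraries with the same number were handled together was not tested. Alternatives were DESeq2 1.42.0, limma 3.58.1 on log2(FPKM + 1) or log2(FPKM + 0.1), median-of-ratios scaling, other filters, a replicate block, only the 2 groups compared, summed features of a symbol, and leaving out each library.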

Additional observations from a re-analysis of the deposited data

How the results depend on the processing

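The alternatives gave 264 results for the members (6 features, 3 tested comparisons), several from each fit, and none passed an adjusted p of 0.05. The lowest adjusted p was 0.0847, for pomc in visual against dark contrast by DESeq2. Over all features edgeR called 0 in each comparison, with 2136 (acoustic against visual), 2179 (acoustic against dark contrast) and 2260 (visual against dark contrast) at an unadjusted p under 0.05; DESeq2 called 27, 35 and 36, and edgeR with only the 2 groups compared called 1 for acoustic against dark contrast. Leaving out each library gave 0 to 1 calls for acoustic against visual and for visual against dark contrast, and 0 for acoustic against dark contrast. It gave log2 fold changes of -0.43 to 3.43 (cga), -3.57 to 0.83 (pomc), -0.35 to 0.07 (TRHR receptor 1) and -0.17 to 0.19 (TRHR receptor 2) for acoustic against dark contrast, -0.31 to 3.13 (cga) and -0.09 to 0.18 (TRHR receptor-like) for acoustic against visual, and -0.74 to 0.92 (cga) and -0.06 to 0.21 (TRHR receptor-like) for visual against dark contrast; the cause was not tested beyond the library left out. The correlation of pomc with cga was 0.50 (r) and 0.38 (rho) over all 15 libraries, and -0.29 to 0.17 (r) and -0.38 to 0.10 (rho) leaving out each of the 9. Summing the features of a symbol cannot alter that correlation, since each hormone stands on 1 feature. The replicate numbers share no pairing in the labels, and 7 of 15 libraries correlated best with their own number; with the replicate block edgeR called 0 features in each comparison, pomc was -4.16 for visual against dark contrast and 2.81 for acoustic against visual (edgeR unadjusted p = 0.105), and cga was 0.73 for acoustic against dark contrast and -1.27 for visual against dark contrast. Low counts limit cga: at 9 counts in visual 2, its lower levels carry wide counting error.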
